A study of Mus musculus with 16 samples.

Results

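Striatal interneurons were examined through 10 marker genes, taken as every row of the deposited read count table whose gene name was Chat, Slc18a3, Slc5a7, Pvalb, Sst, Npy, Nos1, Th, Lhx6 or Lhx8. Each name had a single row, so these were 10 of the 48795 genes in the table, and all 10 passed the filter on low counts, which left 20825 genes for testing. RNA from whole mouse striatum was sequenced in 16 libraries, 4 in each of 4 groups. KO_hM4D libraries came from knockouts of SAPAP3, a postsynaptic scaffold protein encoded by Dlgap3, whose striatum had received an AAV for hM4Di in astrocytes. KO_tdT libraries came from the same knockout with an AAV for tdTomato, a red fluorescent protein. WT_hM4D and WT_tdT libraries came from wild-type mice given either virus. The receptor hM4Di is an engineered inhibitory G protein coupled receptor that responds to deschloroclozapine (DCZ). Mice of all 4 groups received DCZ, so exposure to the drug was shared by every group. Whether an effect of the drug itself differed between genotypes was not tested. The labels give neither the promoter that restricted the viruses to astrocytes nor the age of the mice.

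Interneurons are a small minority of striatal neurons, most of which are GABAergic projection neurons. Cholinergic interneurons are large, tonically active cells that supply most striatal acetylcholine. Fast-spiking parvalbumin interneurons inhibit projection neurons close to the soma, and a further GABAergic class releases somatostatin, neuropeptide Y and nitric oxide. Many of these cells are born in the medial ganglionic eminence, where the transcription factors Lhx6 and Lhx8 take part in their specification. In bulk tissue, fewer cells of a class and less RNA per cell cannot be told apart.

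Library totals ran from 129149745 to 180655067 counts. The deposited values were raw counts, expressed here as CPM (counts scaled to library size) after scaling with TMM factors, which assume that most genes do not change. Dlgap3 averaged 159.5 ± 7.47 CPM in KO_hM4D and 159.9 ± 3.59 CPM in KO_tdT, against 391.6 ± 37.4 CPM in WT_hM4D and 375.2 ± 60.7 CPM in WT_tdT (SD, n = 4 each), so the genotype labels matched the counts. For 3 WT_hM4D libraries a label field named the knockout, but their titles and genotype field named wild type and decided the group. In 4 libraries (KO_tdT 3, WT_hM4D 2, WT_hM4D 4 and WT_tdT 4) both Xist and Y-linked transcripts reached at least 5% of the highest library, so it is uncertain whether each stands for a single mouse. Further libraries held both just under that cut, so the doubt extends to them. They were KO_tdT 4 (Y-linked 4.89%, Xist 60.2%), WT_hM4D 1 (96.3% and 4.18%) and WT_tdT 3 (98.4% and 4.17%). All 4 KO_hM4D libraries carried Xist with Y-linked transcripts at no more than 0.0643% of the highest library, whereas the other groups were mixed in this respect. KO_tdT 3 and KO_hM4D 1 stood apart in 9 markers of thalamic neurons, with means of 5.29 and 5.14 on the log2 CPM scale, against at most 4.03 in any other library.

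The loci of the markers bear on how far their counts are separate measurements. On GRCm38, Chat lies on chromosome 14 from 32408203 to 32465989 on the minus strand, and Slc18a3, from 32462438 to 32464850, lies inside its gene body on the same strand. This is the cholinergic gene locus, in which the vesicular transporter gene sits in an intron of the gene for the synthetic enzyme. The annotated exons of the pair shared 0 bases, and their RefSeq start sites were 1059 bases apart. The libraries were made from total RNA, so reads of unspliced Chat RNA over that intron can count for Slc18a3. Their share was not tested. The other minus-strand markers are Slc5a7 (chr17:54273590-54299034), Pvalb (chr15:78191114-78206400), Sst (chr16:23889573-23890958), Th (chr7:142892752-142931128), Lhx6 (chr2:36081953-36105408) and Lhx8 (chr3:154306294-154330659). Npy (chr6:49822710-49829507) and Nos1 (chr5:117781032-117958840) lie on the plus strand. Nos1 shared 268 exon bases, or 2.4% of its exons, with the antisense gene Gm26995, and Lhx6 shared 104 bases, or 2.16%, with the small RNA Gm27953. The strand setting of the authors' counting is not given in the sources used here, so the Nos1 count is uncertain by the reads of that partner.

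The 250 bases before the start site are shown for 4 markers, from RefSeq on GRCm38.p6, all on the minus strand and written 5′ to 3′. Chat and Slc18a3 are shown because they share a locus and their levels moved together across libraries. Sst and Th are shown because the cAMP response element, TGACGTCA, printed in capitals, stands in both windows. The Chat window is chr14:32465910-32466159, the Slc18a3 window chr14:32464851-32465100, the Sst window chr16:23890845-23891094 and the Th window chr7:142899996-142900245.
Chat: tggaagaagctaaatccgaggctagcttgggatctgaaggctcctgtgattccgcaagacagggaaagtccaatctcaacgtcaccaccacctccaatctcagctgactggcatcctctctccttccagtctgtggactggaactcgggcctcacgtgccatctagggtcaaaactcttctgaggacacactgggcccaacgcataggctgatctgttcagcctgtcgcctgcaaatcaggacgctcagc
Slc18a3: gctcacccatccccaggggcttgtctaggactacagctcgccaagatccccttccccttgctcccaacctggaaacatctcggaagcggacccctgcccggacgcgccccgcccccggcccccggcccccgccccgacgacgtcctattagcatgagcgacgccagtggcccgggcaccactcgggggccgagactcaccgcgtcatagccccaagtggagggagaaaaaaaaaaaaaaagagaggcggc
Sst: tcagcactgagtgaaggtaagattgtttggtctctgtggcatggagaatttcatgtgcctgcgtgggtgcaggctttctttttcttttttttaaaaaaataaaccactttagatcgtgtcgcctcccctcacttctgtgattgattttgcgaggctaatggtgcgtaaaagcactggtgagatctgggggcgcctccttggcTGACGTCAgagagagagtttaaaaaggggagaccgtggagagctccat
Th: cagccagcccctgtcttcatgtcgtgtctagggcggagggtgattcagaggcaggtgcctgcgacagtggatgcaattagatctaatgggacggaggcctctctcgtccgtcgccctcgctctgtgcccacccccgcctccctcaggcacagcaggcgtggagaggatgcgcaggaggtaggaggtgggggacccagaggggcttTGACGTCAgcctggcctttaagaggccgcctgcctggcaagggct

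The element reads the same on both strands, and it was the only motif searched. It stood from -48 to -41 in Sst and from -45 to -38 in Th, counted from the start site. It was found in 2 of the 10 markers, over 13 windows, and in 508 of 32851 RefSeq windows of the same length (1.55%). In Sst it is the sequence from which the cAMP response element was first described, so the count of 2 markers is not a test of enrichment. A relation between the levels of Sst and Th across libraries was not detected (Pearson r = -0.15 and Spearman rho = -0.09, permutation p = 0.575 and 0.749, 16 libraries with group means subtracted).

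Per kilobase of exon, the peptide genes led. Sst averaged 133 ± 16.6 CPM per kilobase and Npy 126 ± 18.9 CPM per kilobase over the 16 libraries (SD), a difference within their spread. Pvalb, the gene of a calcium-binding protein, followed at 48.9 ± 15.5 CPM per kilobase and stood clear of the genes above and below it. The other 7 markers lay between 5.96 CPM per kilobase for Nos1 and 2.04 CPM per kilobase for Slc18a3, in the order Nos1, Slc5a7, Lhx6, Chat, Lhx8, Th and Slc18a3. No neighbours in that order differed beyond their spread. Counts in single libraries ran from 341 for Slc18a3 to 18635 for Sst, so counting error was at most 5.42%, below the spread between libraries of a group for every marker.

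That spread separated the markers into steady and variable ones. The within-group SD on the log2 scale was 0.16 for Nos1, 0.18 for Sst, 0.19 for Lhx6 and 0.21 for Npy. It was 0.37 for Th, 0.42 for Pvalb and Slc5a7, 0.48 for Chat, 0.49 for Slc18a3 and 0.57 for Lhx8. The highest library exceeded the lowest 1.42-fold for Nos1 and 3.56-fold for Lhx8.

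**Figure D1:**
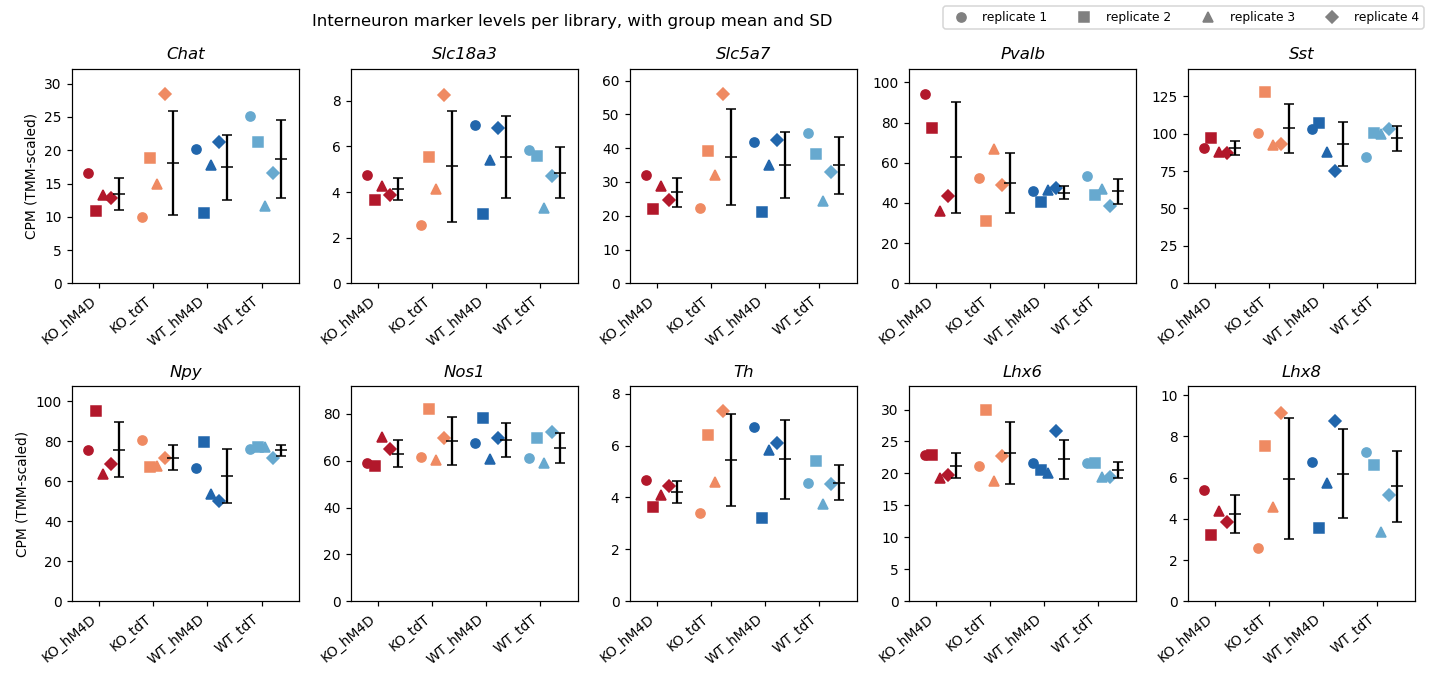
Levels of the 10 markers in CPM (vertical axes, TMM-scaled, starting at 0) in KO_hM4D, KO_tdT, WT_hM4D and WT_tdT, with a point per library shaped by replicate number and the group mean with its SD beside the points. The groups overlap in every panel, and KO_tdT 4 is the highest library for Chat, Slc18a3, Slc5a7, Th and Lhx8.

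The cholinergic markers varied most between libraries, and none differed between groups beyond that variation. Chat encodes choline acetyltransferase, the enzyme that makes acetylcholine. Its level was 16.6, 10.8, 13.3 and 12.9 CPM in the KO_hM4D libraries, 9.96, 18.9, 14.9 and 28.4 CPM in KO_tdT, 20.1, 10.5, 17.7 and 21.3 CPM in WT_hM4D and 25.2, 21.2, 11.6 and 16.6 CPM in WT_tdT. The KO_hM4D libraries lay low and close together, within the span of the KO_tdT and WT_hM4D libraries and overlapping WT_tdT, while KO_tdT held both the lowest and the highest library of all 16.

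Slc5a7 encodes the high-affinity choline transporter that returns choline to the terminal. It was at 31.9, 22.0, 28.9 and 24.8 CPM in KO_hM4D, 22.3, 39.2, 32.0 and 56.1 CPM in KO_tdT, 41.7, 21.3, 35.0 and 42.4 CPM in WT_hM4D and 44.4, 38.2, 24.4 and 32.9 CPM in WT_tdT. KO_tdT 4 was again the highest library, and WT_hM4D 2 the lowest. Slc18a3, the vesicular acetylcholine transporter, averaged 4.13 ± 0.489 CPM in KO_hM4D, 5.13 ± 2.43 CPM in KO_tdT, 5.55 ± 1.80 CPM in WT_hM4D and 4.86 ± 1.14 CPM in WT_tdT (SD, n = 4 each). Lhx8, a LIM homeobox transcription factor of cholinergic neurons, was at 5.40, 3.22, 4.39 and 3.85 CPM in KO_hM4D, 2.57, 7.51, 4.55 and 9.15 CPM in KO_tdT, 6.75, 3.53, 5.73 and 8.76 CPM in WT_hM4D and 7.22, 6.59, 3.36 and 5.14 CPM in WT_tdT. The KO_hM4D mean was the lowest of the 4 for each of these cholinergic genes.

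In KO_hM4D against KO_tdT the log2 change was -0.43 for Chat (95% confidence interval -1.04 to 0.19), -0.47 for Slc5a7 (-1.02 to 0.07), -0.31 for Slc18a3 (-0.94 to 0.32) and -0.49 for Lhx8 (-1.22 to 0.23). The smallest adjusted p among them was 0.500, for Slc5a7 (edgeR quasi-likelihood test, Benjamini-Hochberg over all genes tested). Without KO_tdT 4 the Slc18a3 change became 0.016. In KO_hM4D against WT_hM4D the log2 change was -0.38 for Chat, -0.38 for Slc5a7, -0.43 for Slc18a3 and -0.55 for Lhx8, with standard errors (SE) of 0.26 to 0.34 and adjusted p from 0.505 in edgeR. In the comparisons of KO_tdT and of WT_hM4D with WT_tdT, the log2 changes of these genes were at most 0.19 in size, and the bounds of their 95% confidence intervals lay between -0.71 and 0.87.

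Marker levels of other neurons and of sex were also compared between these groups. The ranges of the neuron lists overlapped, while most of their fitted changes shared a direction. The KO_hM4D libraries had means of 7.56 to 7.94 over 13 striatal projection neuron markers on the log2 CPM scale, against 7.56 to 8.38 in KO_tdT and 7.54 to 8.29 in WT_hM4D. Over 7 cortical excitatory neuron markers they had means of 6.02 to 6.57, against 5.26 to 6.49 in KO_tdT and 5.56 to 6.39 in WT_hM4D. In KO_hM4D against WT_hM4D, 1 of 13 projection neuron markers had a positive log2 change (median -0.24) and 7 of 7 cortical markers (median 0.38). Against KO_tdT these were 1 of 13 (median -0.14) and 6 of 7 (median 0.24). Over all genes tested the medians were -0.009 and 0.002. None of these markers was called in edgeR. A covariate for the level of Y-linked transcripts was chosen after the data were seen. With it the Chat change in KO_hM4D against WT_hM4D was -0.75 (adjusted p = 0.225, edgeR), and without it -0.38. The part of tissue makeup or sex in the cholinergic values was not tested.

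Pvalb spread widely in the knockouts and little in wild-type mice. Its level was 94.0, 77.4, 35.8 and 43.6 CPM in KO_hM4D, 52.7, 30.9, 66.9 and 49.2 CPM in KO_tdT, 46.0, 40.5, 46.6 and 47.7 CPM in WT_hM4D and 53.4, 44.2, 47.1 and 38.3 CPM in WT_tdT. KO_hM4D held 2 libraries above every other library and 2 within or below the WT_hM4D range. The log2 change in KO_hM4D against WT_hM4D was 0.47 ± 0.26 (SE; 95% confidence interval -0.07 to 1.01; adjusted p = 0.450, edgeR), and in KO_hM4D against KO_tdT it was 0.33 ± 0.26 (adjusted p = 0.634, edgeR). In KO_tdT against WT_tdT it was 0.13 ± 0.26, and in WT_hM4D against WT_tdT -0.02 ± 0.26. KO_hM4D 1 and KO_tdT 3, the highest libraries of their groups for Pvalb, were also the libraries highest in thalamic neuron markers.

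Of the peptide and nitric oxide class, Npy gave the smallest p-value of all 10 markers in a pairwise comparison (0.398 after adjustment, edgeR). Npy encodes neuropeptide Y, and it was at 75.4, 95.4, 63.7 and 68.8 CPM in KO_hM4D, 80.9, 67.4, 67.5 and 71.8 CPM in KO_tdT, 66.7, 79.6, 53.9 and 50.1 CPM in WT_hM4D and 76.0, 77.3, 77.2 and 71.6 CPM in WT_tdT. In WT_hM4D replicates 1, 3 and 4 lay below every WT_tdT library, with 3 and 4 the lowest, while replicate 2 lay above every WT_tdT library. The log2 change was 0.28 ± 0.13 in KO_hM4D against WT_hM4D (95% confidence interval -0.0036 to 0.56). It was -0.27 ± 0.13 in WT_hM4D against WT_tdT (-0.55 to 0.0089; adjusted p = 0.471, edgeR). These comparisons share the WT_hM4D libraries. Npy was higher in KO_hM4D than in WT_hM4D in 4 of 4 pairs of libraries with the same number. Lhx8 was so in 0 of 4, and Pvalb and Lhx6 in 2 of 4. Chat, Slc18a3, Slc5a7, Sst, Nos1 and Th were so in 1 of 4 pairs with the same number. With that number as a replicate block and only these 8 libraries, a fit chosen after seeing the data, Npy passed the test (log2 change 0.29, adjusted p = 0.0234, edgeR), as did 1232 of 20127 genes, or 6.12%. That call was lost when the pair numbered 1, 3 or 4 was left out (adjusted p = 0.0766, 0.0895 and 0.0638, edgeR). In the knockouts Npy differed by 0.08 ± 0.13 between KO_hM4D and KO_tdT.

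Sst, which encodes the peptide somatostatin, was at 90.4, 97.0, 87.6 and 86.8 CPM in KO_hM4D, 101, 128, 92.1 and 93.3 CPM in KO_tdT, 103, 107, 87.8 and 75.0 CPM in WT_hM4D and 84.6, 101, 99.7 and 103 CPM in WT_tdT. Its largest log2 change was -0.19 ± 0.11 in KO_hM4D against KO_tdT (95% confidence interval -0.43 to 0.04; adjusted p = 0.525, edgeR), where KO_tdT 2 was the highest library. In KO_tdT against WT_tdT the interval for Sst ran from 0.90-fold to 1.26-fold.

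Nos1, the gene of neuronal nitric oxide synthase, ran from 57.8 to 82.1 CPM over all libraries and was the steadiest marker. It averaged 63.0 ± 5.77 CPM in KO_hM4D, 68.4 ± 10.1 CPM in KO_tdT, 69.0 ± 7.26 CPM in WT_hM4D and 65.4 ± 6.48 CPM in WT_tdT (SD, n = 4 each). Its interval in KO_tdT against WT_tdT ran from 0.90-fold to 1.22-fold. Lhx6, a transcription factor that somatostatin and parvalbumin interneurons keep into adulthood, averaged 21.2 ± 1.99 CPM in KO_hM4D, 23.2 ± 4.80 CPM in KO_tdT, 22.2 ± 3.07 CPM in WT_hM4D and 20.6 ± 1.25 CPM in WT_tdT. Without KO_tdT 2, the library with 30.0 CPM of Lhx6, its log2 change in KO_hM4D against KO_tdT became 0.020, against -0.13 ± 0.12 with it.

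Th encodes tyrosine hydroxylase, the rate-limiting enzyme of catecholamine synthesis, which in the striatum marks a small interneuron class and the axons of midbrain dopamine neurons. It was at 4.66, 3.65, 4.09 and 4.45 CPM in KO_hM4D, 3.40, 6.42, 4.60 and 7.32 CPM in KO_tdT, 6.70, 3.23, 5.84 and 6.09 CPM in WT_hM4D and 4.55, 5.42, 3.76 and 4.54 CPM in WT_tdT. Its interaction of genotype and virus, the change in KO_hM4D against WT_hM4D minus that in KO_tdT against WT_tdT, was -0.63 ± 0.32 on the log2 scale (95% confidence interval -1.30 to 0.04; adjusted p = 0.740, edgeR). Of 6 dopamine neuron genes, En1 and Pitx3, transcription factors of the midbrain cells, were listed at 0 to 6 and 0 to 7 counts per library and were not tested. Slc6a3, the dopamine transporter, had 16 to 63 counts per library, against at least 444 for Th. Of the remaining genes of that list, Slc18a2 had 31 to 245, Ddc 629 to 1370 and Nr4a2 2112 to 12954 counts per library.

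Without the block, none of the 10 markers passed an adjusted p of 0.05 in edgeR in any of the 8 tests, none had an unadjusted p under 0.05, and none passed in DESeq2. The share of all genes tested that passed was itself small. It was 0.0384% in KO_tdT against WT_tdT, 0.0192% in KO_hM4D against WT_hM4D, 0.0864% in WT_hM4D against WT_tdT and 0.0048% in KO_hM4D against KO_tdT. It was 0% in the interaction, 0.0768% for KO against WT averaged over viruses, 0.0288% for hM4D against tdT averaged over genotypes and 0.173% in the test for any difference among the 4 groups. At such shares 0 of 10 markers does not stand apart from the genes tested. In that last test the smallest adjusted p was 0.468, for Npy (edgeR).

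All 10 markers overlapped between the groups in each of the 4 pairwise comparisons. Among all genes tested, the 4 and 4 libraries did not overlap for 4.09% in KO_tdT against WT_tdT, 6.09% in KO_hM4D against WT_hM4D, 6.83% in WT_hM4D against WT_tdT and 4.88% in KO_hM4D against KO_tdT.

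**Figure D2:**
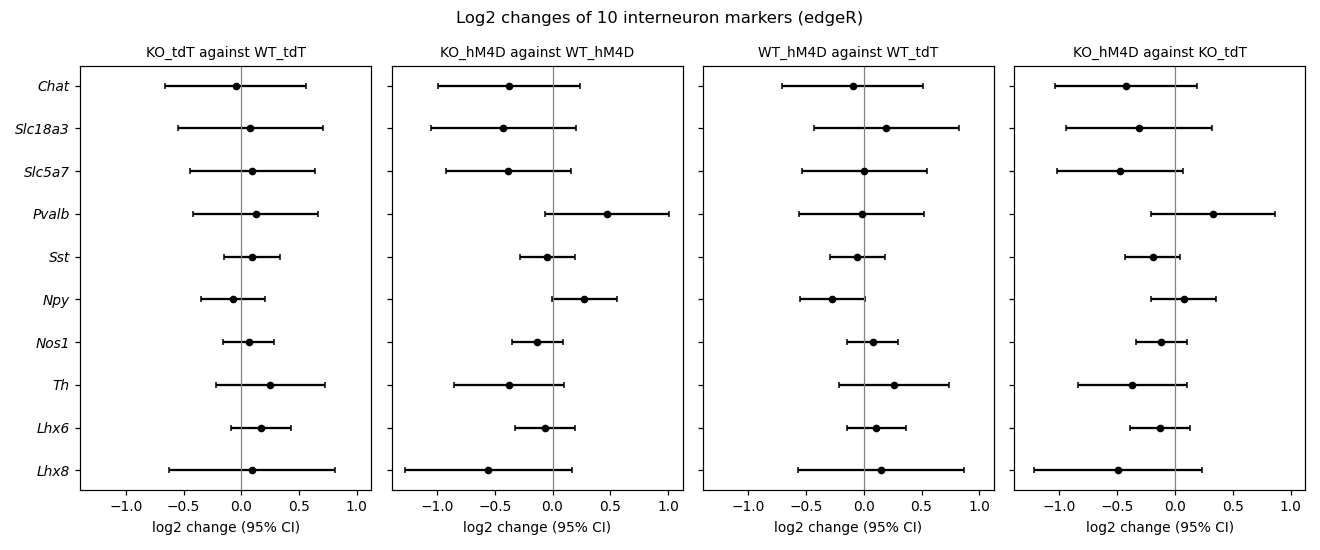
Log2 changes of the 10 markers (horizontal axes, points) with 95% confidence intervals (bars) from edgeR, in the 4 pairwise comparisons. Every interval includes 0, and the intervals of Chat, Slc18a3, Slc5a7, Pvalb, Th and Lhx8 are wider than those of Sst, Npy, Nos1 and Lhx6.

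The direction of the fitted changes differed between comparisons, each given here on its own since the comparisons share libraries. In KO_tdT against WT_tdT 8 of 10 markers had a positive log2 change, with a median of 0.09. In KO_hM4D against WT_hM4D 2 of 10 were positive, namely Pvalb and Npy, with a median of -0.25. In WT_hM4D against WT_tdT 6 of 10 were positive, with a median of 0.04. In KO_hM4D against KO_tdT 2 of 10 were positive, again Pvalb and Npy, with a median of -0.25. In the interaction 2 of 10 were positive, with a median of -0.28. The median over all genes tested lay within 0.01 of 0 in each of the pairwise comparisons. No single marker passed the test in any of them without the block, so these counts describe the fitted values only.

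Across libraries, 5 markers moved as a block. After subtraction of group means, all 10 pairs among Chat, Slc18a3, Slc5a7, Th and Lhx8 correlated, with Pearson r of 0.90 to 0.99 and Spearman rho of 0.85 to 0.99 over 16 libraries. Their adjusted permutation p was 4.5e-05 for r in each pair and at most 0.000495 for rho, over the 45 pairs of markers (100000 resamples, where 1e-05 is the smallest p before adjustment). Without the 2 libraries farthest from the median of the first gene of each pair, r was 0.83 to 0.99. Leaving out any single library kept r at 0.86 or above. Th had r of 0.90 with Chat, 0.95 with Slc18a3 and -0.15 with Sst.

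Outside this block, the only pair past an adjusted p of 0.05 for r was Pvalb with Nos1, which ran in opposite directions (r = -0.78, rho = -0.78, adjusted permutation p = 0.00106 and 0.00225, and r = -0.65 without KO_hM4D 3 and KO_tdT 2). Lhx6 with Lhx8 passed for the rank correlation alone (r = 0.55, rho = 0.63, adjusted permutation p = 0.0917 and 0.0451). The resamples shuffled libraries across groups after group means were subtracted, so permutation p-values just under 0.05 can be too small. Sst and Npy, which many striatal interneurons express together, had r of 0.52 and rho of 0.56 (adjusted permutation p = 0.116 and 0.0813). Pvalb had r of 0.04 with Chat and -0.07 with Lhx6. In all, 16 of the 45 pairs had an unadjusted permutation p under 0.05 for r.

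**Figure D3:**
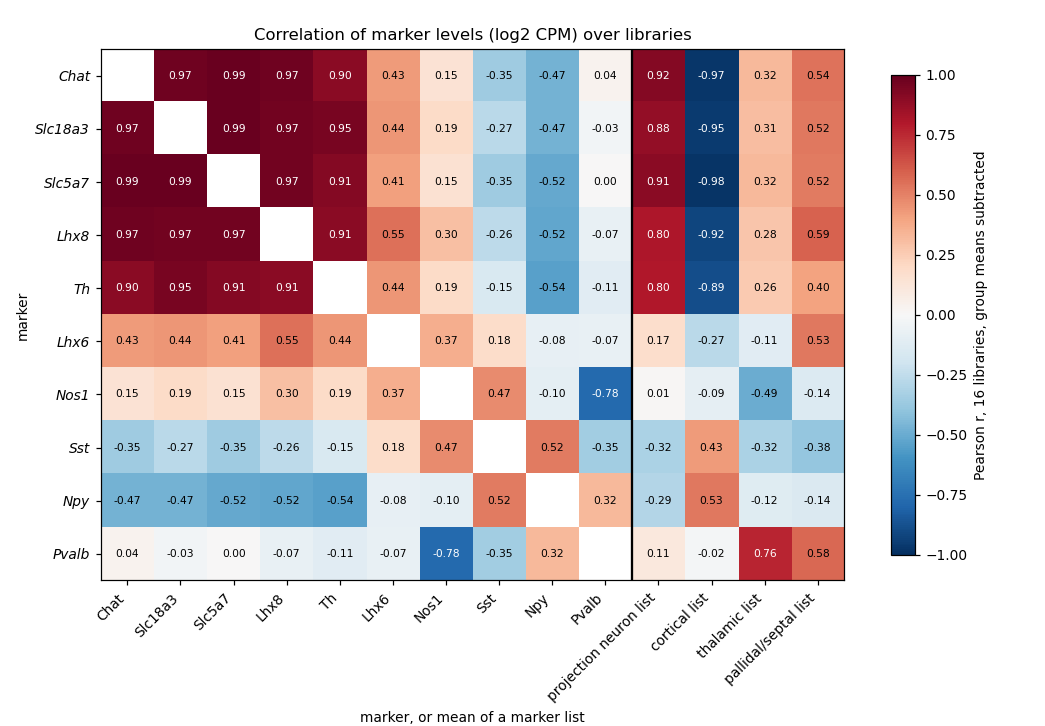
Pearson r between log2 CPM of the 10 markers, and between each marker and the mean of 4 marker lists (columns right of the black line), over 16 libraries with group means subtracted. Chat, Slc18a3, Slc5a7, Lhx8 and Th form a block with r of 0.90 to 0.99, and the same 5 markers run with the projection neuron list and against the cortical list.

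The block of 5 also varied with marker lists of other neurons. Of 40 relations between a marker and the mean of a marker list of other neurons, 11 passed an adjusted permutation p of 0.05 for r. Chat varied with the striatal projection neuron list (r = 0.92, rho = 0.84, adjusted permutation p = 5e-05 and 0.00107) and against the cortical list (r = -0.97, rho = -0.96, adjusted permutation p = 5e-05 and 0.0002). Without KO_tdT 1 and WT_hM4D 2 these values of r were 0.91 and -0.96. Th had r of 0.80 with the projection neuron list and -0.89 with the cortical list. The 13 projection neuron markers, the 7 cortical markers and the Chat level were counted in the same libraries and scaled by the same factors. The part of tissue makeup in the block was not tested.

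Pvalb followed another list. Its level correlated with the mean of the 9 thalamic neuron markers (r = 0.76, adjusted permutation p = 0.00287), but the rank correlation did not pass (rho = 0.49, adjusted permutation p = 0.14). Without KO_hM4D 1 and KO_tdT 3, the libraries highest in that list, r was 0.57, so the linear relation rests in part on them. The list mean was 2.79 to 5.14 in KO_hM4D, 2.94 to 5.29 in KO_tdT, 2.61 to 3.48 in WT_hM4D and 2.51 to 2.73 in WT_tdT on the log2 CPM scale. Shox2, a transcription factor of thalamic neurons, ran from 0.03 to 13.8 CPM over the libraries. Sst, Npy, Nos1 and Lhx6 had no relation to any of the 4 lists that passed for r. Lhx6 passed for rho with the pallidal, septal and basal forebrain list (r = 0.53, rho = 0.63, adjusted permutation p = 0.087 and 0.0355). That p for rho can likewise be too small, since the resamples shuffled libraries across groups.

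**Figure D4:**
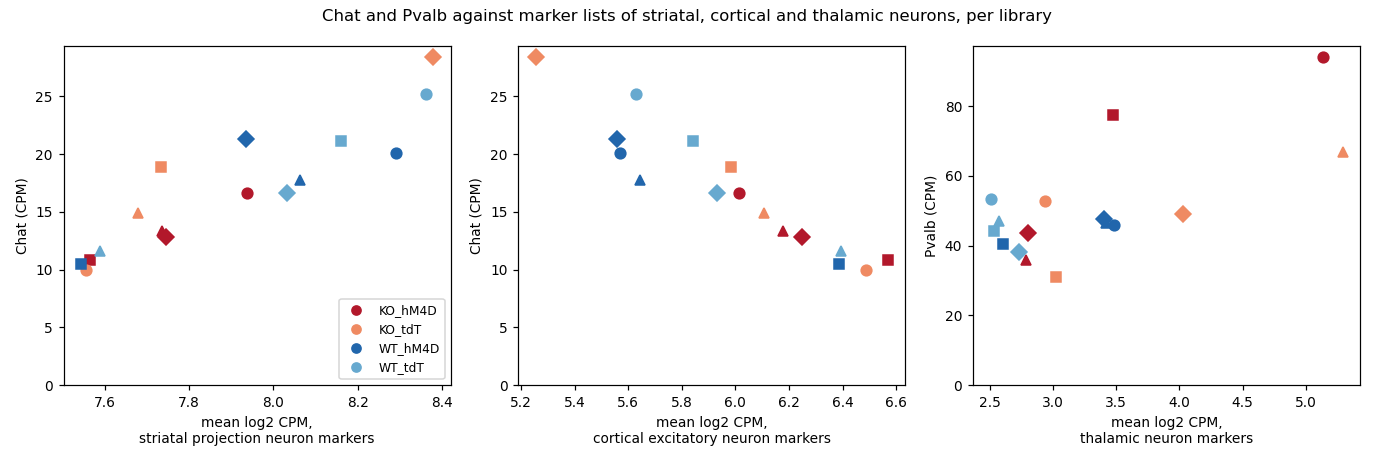
Chat against the mean of the striatal projection neuron markers (left) and of the cortical excitatory neuron markers (middle), and Pvalb against the mean of the thalamic neuron markers (right), with a point per library coloured by group and shaped by replicate. Horizontal axes are mean log2 CPM and vertical axes CPM. Chat is highest in KO_tdT 4, where the projection neuron mean is highest (8.38) and the cortical mean lowest (5.26), and Pvalb is highest in KO_hM4D 1.

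The genes whose levels ran most closely with 4 of the markers were sought among the 13955 genes that averaged 1 CPM or more, with group means subtracted over 16 libraries. For Chat they included Slc10a4, a vesicular protein of cholinergic and monoaminergic neurons (r = 0.99, rho = 0.99), and Ass1, argininosuccinate synthase (r = 0.98, rho = 0.97). For Pvalb they were the potassium channel subunit Kcng4 (r = 0.98, rho = 0.98), the nuclear receptor Esrrg (r = 0.95, rho = 0.88) and Plxdc1 (r = 0.93, rho = 0.90). Kcng4 ran from 4.32 to 17.8 CPM and also belongs to the list of pallidal and septal markers used here.

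For Sst the closest genes were Celf4, an RNA-binding protein of neurons (r = 0.90, rho = 0.88), Dcakd (r = 0.90, rho = 0.91) and Rogdi (r = 0.90, rho = 0.90). For Npy they were Zmat2 (r = 0.94, rho = 0.90), Cyth3 (r = 0.93, rho = 0.77) and the adenosine receptor Adora1 (r = 0.93, rho = 0.90). Among these, Celf4 had a mean of 443 CPM and Adora1 of 201.9 CPM, and both are expressed in many neurons besides interneurons.

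Further genes of the same classes were read from the same fit, and none passed an adjusted p of 0.05 in edgeR in any comparison. Of 9 further cholinergic genes, 8 had a positive log2 change in KO_tdT against WT_tdT (median 0.14) and 1 in KO_hM4D against WT_hM4D (median -0.45). Over all genes tested, 10390 and 9883 of 20825 were positive in these comparisons. Slc10a4, a gene of this list, ran with Chat across libraries (r = 0.99), so the 9 genes do not all count independently. The pair with the smallest p in the 4-group test was Zic4 (adjusted p = 0.361, edgeR), at 1.43 ± 0.49 CPM in KO_hM4D, 1.90 ± 0.66 CPM in KO_tdT, 2.09 ± 1.63 CPM in WT_hM4D and 1.04 ± 0.17 CPM in WT_tdT, and Gbx2 (adjusted p = 0.411, edgeR), which stayed under 1 CPM in every library.

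Of 6 further parvalbumin interneuron genes, 5 had a positive log2 change in KO_hM4D against WT_hM4D, with a median of 0.21 against -0.01 over all genes tested. Kcnc2, a potassium channel of fast-spiking cells, averaged 135.5 ± 15.2 CPM in KO_hM4D, 124.8 ± 29.6 CPM in KO_tdT, 103.3 ± 13.2 CPM in WT_hM4D and 101.0 ± 12.9 CPM in WT_tdT. Its log2 change averaged over viruses was 0.35 ± 0.10 in KO against WT (adjusted p = 0.215, edgeR). Pthlh, a peptide gene of the class, had -0.38 ± 0.14 in KO_hM4D against WT_hM4D (adjusted p = 0.332, edgeR), opposite in sign to Pvalb. In the same comparison the 7 cortical markers, whose neurons can also express potassium channels of this family, all had positive log2 changes (median 0.38), and their part in the Kcnc2 value was not tested.

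Of 6 further somatostatin, NPY and NOS1 genes, the pair with the smallest p in the 4-group test was Chodl, a marker of cells that express Nos1 strongly, and Tacr1, the substance P receptor (adjusted p = 0.565 and 0.590, edgeR). Among 10 genes of other interneuron classes, Calb2, the calretinin gene, had the smallest p of any interneuron gene examined. Calb2 averaged 6.04 ± 0.80 CPM in KO_hM4D, 12.1 ± 4.87 CPM in KO_tdT, 7.50 ± 3.15 CPM in WT_hM4D and 4.82 ± 0.78 CPM in WT_tdT (SD, n = 4 each). Its log2 change was 1.33 ± 0.30 in KO_tdT against WT_tdT (adjusted p = 0.224, edgeR) and -1.01 ± 0.30 in KO_hM4D against KO_tdT (adjusted p = 0.285, edgeR), and its adjusted p in the 4-group test was 0.129 in edgeR. The median thalamic marker had a log2 change of 1.01 in KO_tdT against WT_tdT, and the part of thalamic tissue in the Calb2 value was not tested. Vip, the gene of vasoactive intestinal peptide, had 0.85 ± 0.31 in KO_hM4D against WT_hM4D (adjusted p = 0.332, edgeR).

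Of 11 transcription factors of the ganglionic eminences, 5 had a positive log2 change in KO_hM4D against WT_hM4D, with a median of -0.03. Maf, a transcription factor of cortical and striatal interneuron precursors, had an adjusted p of 0.335 in the 4-group test (edgeR). Of the 4 dopamine neuron genes tested, Slc18a2, the vesicular monoamine transporter, had -0.95 ± 0.42 in KO_hM4D against WT_hM4D (adjusted p = 0.367, edgeR). Ddc, the decarboxylase that follows tyrosine hydroxylase, had -0.36 ± 0.17 (adjusted p = 0.397, edgeR), beside -0.38 ± 0.22 for Th. Slc18a2 averaged only 0.39 ± 0.15 CPM in KO_hM4D and 0.75 ± 0.52 CPM in WT_hM4D (SD), so its change rests on a low level. The 4 pallidal, septal and basal forebrain markers had a median log2 change of 0.13 in that comparison, with Npas1, Trpc4 and Ngfr the 3 of smallest p in the 4-group test (adjusted p from 0.403, edgeR).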

How the data were processed

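Total RNA of striatum was depleted of ribosomal RNA and made into stranded libraries, per the labels' protocols. The deposited values are raw counts, whole numbers made by the authors for each gene and library. The submitters' processing notes name bcl2fastq 2.17, STAR and HTSeq, and the builds GRCm38 and mm10. Which annotation release and strand setting were used is not stated in those notes or labels. The table held 0 rows that name no gene. Of its 48795 genes, 48349 matched GENCODE M21 by identifier, 48335 of them on the same chromosome and strand, and promoter windows were found for all 10 markers in RefSeq.

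edgeR 4.0.16 (R 4.3.3) was run on the counts (filterByExpr by group, TMM factors, 1 coefficient per group, all 16 libraries, quasi-likelihood F tests, two-sided, Benjamini-Hochberg over 20825 genes, called at an adjusted p under 0.05). The 8 tests were 4 pairwise comparisons, the interaction, averages over viruses and over genotypes, and any difference among the 4 groups. Scripts were tested on simulated data. Within groups, the 24 pairs of libraries had a chi-square of 13.0 to 144 per degree of freedom, far from identical, so each library counted as 1 replicate. Deviations from group means, correlated across genes, were compared between same-numbered libraries. In KO_hM4D and WT_hM4D all 4 pairs exceeded 0.1 (0.25 to 0.53), so these groups were treated as paired in an added fit with the number as a block and 3 residual degrees of freedom. That pairing comes from the data, since the labels say of no number that it marks a shared litter or day. Of the 8 libraries, 6 were closest to their own number. Among the 12 differently numbered pairs of these groups 2 exceeded 0.1, the highest at 0.30. In KO_tdT and WT_tdT differently numbered pairs reached 0.64, so correlations of this size also occurred without a shared number. In none of the other 5 combinations of groups did all same-numbered pairs exceed 0.1. P-values measure the spread between these libraries. Correlations used log2 CPM (prior count 2) and SciPy 1.17.1. DESeq2 1.42.0 was an alternative.

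The markers, the 10 gene lists and the tests were chosen with earlier results of these data known. From each further interneuron list the 2 genes with the smallest p in the 4-group test were named where none was called, from each list of other neurons up to 3, and for Chat, Pvalb, Sst and Npy the 3 most correlated genes. Among the projection neuron markers these were Foxp1, Rgs9 and Pde10a, among the cortical markers Rorb and Cux2, and among the thalamic markers Slc17a6, Shox2 and Tcf7l2. Their smallest adjusted p in edgeR's 4-group test was 0.384, 0.346 and 0.190 by list in that order. Some genes that this rule names are not reported here.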

Additional observations from a re-analysis of the deposited data

How the results depend on the processing

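No marker was called in any of the 8 tests under these alternatives: DESeq2, RLE scaling, no filter on low counts, a replicate block over all 16 libraries, only the groups compared, each library left out in turn (0 markers called each time), without the 4 libraries with Xist and Y-linked transcripts, and, both chosen after seeing the data, without the 2 libraries highest in thalamic markers and with Y-linked level as a covariate. Of 1960 marker values from these and the blocked fits below, 6 were called and 84 had an unadjusted p under 0.05. Of 1730 values with a direction 67 changed sign, and 4 of these exceeded 1 SE in either fit. Those were Lhx6, KO_hM4D against KO_tdT, which became 0.020 without KO_tdT 2 (-0.22 to 0.020 over all such omissions), Slc18a3, KO_hM4D against KO_tdT, which became 0.016 without KO_tdT 4 (-0.55 to 0.016), Lhx6, KO_hM4D against WT_hM4D, which became 0.067 in the blocked fit without pair 4 (-0.13 to 0.067 over all omissions), and Sst, KO_hM4D against WT_hM4D, which became 0.17 with the Y-linked covariate; the cause was not tested. The median log2 change of all genes stayed within 0.0162 of 0, farthest with the Y-linked covariate.

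The replicate block over all 16 libraries left 0 markers called, and all-gene calls were 0 in KO_hM4D against KO_tdT, against 1 without the block. The replicate block with only the libraries compared was chosen after seeing the data. In KO_hM4D against WT_hM4D, the groups treated as paired, it called 1 marker, Npy, among 1232 genes (4 without the block). Without each pair in turn 0 to 5 markers and 74 to 1322 genes were called. The 5 came without pair 2 and were Npy (0.30), Chat (-0.46), Slc18a3 (-0.56), Slc5a7 (-0.47) and Th (-0.49), with adjusted p of 0.0144 to 0.0355 (edgeR). The fit without pair 2 called 1322 of 20432 genes, or 6.47%, and had 2 residual degrees of freedom. Chat, Slc18a3, Slc5a7 and Th are among the 5 markers that moved together across libraries, so their calls are not independent. In the other pairwise comparisons not all same-numbered pairs exceeded 0.1. There the fit with the block called 0 markers, with 0 genes in KO_tdT against WT_tdT, 10 in WT_hM4D against WT_tdT and 4 in KO_hM4D against KO_tdT.

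Counts over all genes moved more. DESeq2 called 62 genes in KO_tdT against WT_tdT (edgeR 8), 83 in KO_hM4D against WT_hM4D (4), 256 in WT_hM4D against WT_tdT (18), 124 in KO_hM4D against KO_tdT (1), 12 in the interaction (0), 223 for KO against WT (16), 674 for hM4D against tdT (6) and 995 in the 4-group test (36). The 4 libraries at 5% or more for both Xist and Y-linked transcripts were also left out. These edgeR counts were then 1, 1, 1, 0, 1, 1, 3 and 2 in the same order. With the Y-linked covariate they were 13, 4, 28, 0, 0, 14, 113 and 78, and without the thalamic libraries 4, 3, 18, 0, 0, 7, 6 and 20. Without a filter the averaged hM4D count was 41 and the 4-group count 67, and with only the groups compared WT_hM4D against WT_tdT gave 49, KO_tdT against WT_tdT 1, KO_hM4D against WT_hM4D 7 and KO_hM4D against KO_tdT 0. Leaving out single libraries gave 2 to 32, 1 to 9, 6 to 65, 0 to 8, 0 to 4, 7 to 163, 5 to 284 and 14 to 84. Correlated pairs of markers numbered 11 to 12 of 45 when any library was left out.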

Other observations

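In the fit with Y-linked level as a covariate, chosen after seeing the data, the term for that level was largest in evidence for Sst among the markers. From a library without Y-linked transcripts to the library with the most, Sst was higher by 0.28 on the log2 scale (adjusted p = 0.534 over all genes tested, edgeR). Chat was lower over the same span, with -0.53 (adjusted p = 0.534, edgeR), and Lhx8 had -0.55 (adjusted p = 0.556, edgeR). Npy, Nos1 and Lhx6 had 0.17, 0.02 and -0.01. All KO_hM4D libraries lie at the lower end of that span, so group and sex are partly confounded there.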
